A study of Mus musculus with 6 samples.

Results

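The 44 genes described here code for proteins of the nucleolus and for the factors that assemble ribosomes there. They were taken by name from the deposited tables, and all 44 had a mean of at least 1 TPM over the 6 libraries (TPM, transcripts per 1e+06, a share of the library corrected for gene length). They are 44 of the 11551 genes that passed this filter, out of 36333 listed. The lowest member, Polr1b, averaged 9.67 TPM, so the threshold removed none.

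Ribosomes are built mainly in the nucleolus, where RNA polymerase I transcribes the ribosomal RNA precursor. Small nucleolar ribonucleoproteins (snoRNPs) modify this precursor. A small subunit processome and a large set of assembly factors fold it, cut it and join it with ribosomal proteins into the small (40S) and large (60S) subunits. The transcription factor MYC, which binds DNA together with MAX, is a well known activator of many of these genes, and the pathway is generally most active in growing cells.

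All cells were bone marrow derived macrophages of the C57BL/6 genotype, described as wild type, made by growing mouse marrow with M-CSF, the macrophage growth factor, at 10 ng/mL for 7 days and replating 250000 cells per well. Stearic acid, a saturated fatty acid, was added at 100 µM for 24 h to 3 samples, and the other 3 received its vehicle, ethanol, for the same time. Polyadenylated RNA was sequenced. The labels do not say whether replicates were separate animals or cultures, so a p-value here speaks only of the scatter among these 6 samples, part or all of which may be technical.

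Depth, as recovered from the steps of the deposited RPKM values, ranged over the libraries from 58.1 to 80.8 M (1e+06) sequenced reads, or pairs of reads, so that 1 TPM stood for 19.1 to 27.7 of them per kilobase of transcript. Of the 8 macrophage markers examined, all were above the filter. Cd68 was higher with stearic acid, while Cx3cr1, Adgre1, Fcgr1, Lyz2 and Itgam were lower, and the summed level of the 8 was 32909 to 33823 TPM with vehicle and 23256 to 28903 TPM with stearic acid. Among markers of other cells, 1 of 8 neutrophil and progenitor genes passed the filter (S100a8, higher, with a list sum of 2.50 to 4.71 against 6.39 to 7.22 TPM). Of 8 lymphoid genes 1 did (Cd79b, lower; Cd3e, Cd3g, Nkg7 and Ncr1 were listed at 0), and no dendritic, erythroid, mast cell or stromal gene did. The part of these shifts in the results was not tested, and in bulk RNA a change in the kinds of cells present cannot be told apart from a change in RNA per cell.

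Most of the nucleolar and ribosome assembly genes rose with stearic acid. Of the 44 genes, 31 rose and none fell (limma on log2(TPM + 1), adjusted p under 0.05, Benjamini-Hochberg over all genes tested; at an unadjusted p under 0.05, 36 were higher and 0 lower). Over all 11551 genes 24.7% changed at the adjusted threshold, 12.8% upwards and 11.9% downwards. At an unadjusted limma p under 0.05, 2232 of all genes were higher and 2439 lower. The median log2 fold change of the 44 was 0.50, with a range of -0.08 to 1.23, beside -0.03 over all genes. A positive value was found in 41 of them, and 18 reached a 1.5-fold ratio of the means. All 3 stearic acid libraries lay above all 3 vehicle libraries for 35 of the 44, a pattern that 22.8% of all genes showed. Summed over the 44 genes, the level was 2148 to 2256 TPM with vehicle and 2331 to 3230 TPM with stearic acid, so the sums did not overlap.

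The number of calls rested on single libraries, whereas the size of the shift moved less. Leaving out vehicle replicate 1, 2 or 3 left 14, 1 and 2 of the 44 genes past the threshold, and leaving out stearic acid replicate 1, 2 or 3 left 40, 27 and 8. Of all 11551 genes, 684, 384 and 486 were called higher without vehicle replicate 1, 2 or 3. Without stearic acid replicate 1, 2 or 3 these numbered 2223, 1059 and 585. Without vehicle replicate 2 or 3 the share called among the 44 was thus near that over all genes. Over the same 6 fits the median log2 fold change stayed between 0.37 and 0.64, and none of the 44 was called lower. With no filter on low values 2 passed, Gnl3 and Ppan, beside 672 of 21632 genes called higher. On RPKM 30 passed, after median-of-ratios scaling 27 and after quantile normalization 24. Of all 11551 genes, 1981, 1728 and 1679 were called higher under these 3 scalings. Gnl3 alone passed in all 6 of the fits with a library left out.

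**Figure D1:**
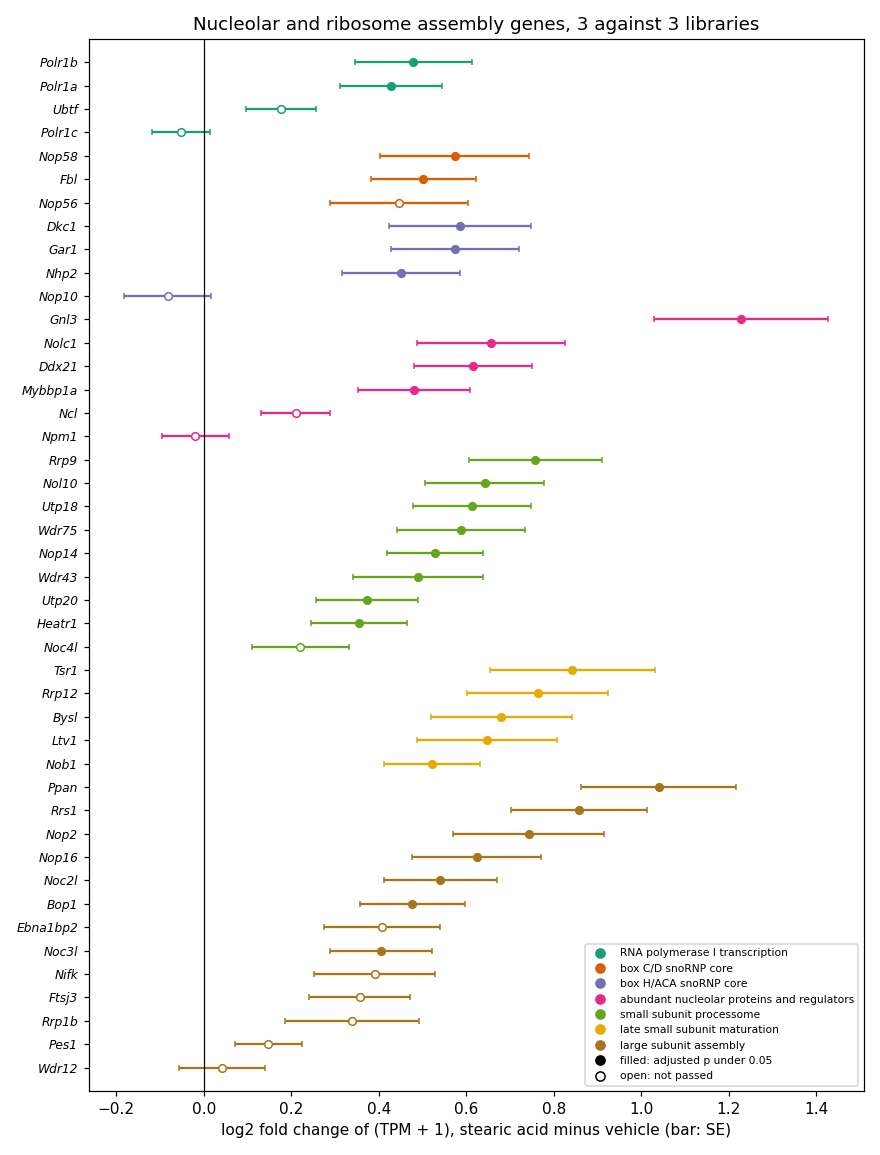
Log2 fold change of each of the 44 genes (stearic acid minus vehicle, on log2(TPM + 1); points with bars of 1 SE, 3 libraries a group), arranged and coloured by role. Filled points had an adjusted p under 0.05, and open points did not. Values run from -0.08 for Nop10 to 1.23 for Gnl3, and every gene that passed lies to the right of 0.

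Promoter windows of 300 bases, 250 before and 50 after the annotated start, were at hand in RefSeq (GRCm38.p6) for 39 of the 44 genes, the exceptions being Rrs1, Bop1, Npm1, Fbl and Rrp12. They were searched on both strands for CACGTG, the E-box bound by MYC and MAX among other factors, for CCGGAAG, a core of ETS factor sites, for TCTCGCGA, part of a palindrome bound by ZBTB33, and for TGATGCAA, an element of the ATF4 type. CACGTG was in 8 of the 39 windows (20.5%), in 12.2% of the windows of all 9335 tested genes that had one, and in 17.0% of the windows of genes called higher. CCGGAAG was in 14 windows (35.9%, against 21.5% of all tested and 20.2% of genes called higher), and TCTCGCGA in 4 (10.3%, against 2.62% and 1.98%). No member window held TGATGCAA, which was in 0.718% of all windows and 1.73% of those of genes called higher. A match is only a stretch of letters, and its absence says only that these letters are not in the window.

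The windows of 6 genes are shown because they set the largest rises beside genes with the same letters that did not pass. Gnl3 (chr14:31019082-31019381, minus strand) and Ppan (chr9:20887925-20888224, plus strand) had the highest fold changes. Tsr1 (chr11:74897830-74898129, plus strand) and Nop2 (chr6:125131633-125131932, plus strand) hold CACGTG and rose. Pes1 (chr11:3963725-3964024, plus strand) also holds CACGTG, and Polr1c (chr17:46247996-46248295, minus strand) holds CCGGAAG and TCTCGCGA, but neither passed. Capitals mark matches to the searched motifs on either strand, each window reads from 5′ to 3′ on the gene's strand, and the 6 were picked after their values were seen.
Gnl3: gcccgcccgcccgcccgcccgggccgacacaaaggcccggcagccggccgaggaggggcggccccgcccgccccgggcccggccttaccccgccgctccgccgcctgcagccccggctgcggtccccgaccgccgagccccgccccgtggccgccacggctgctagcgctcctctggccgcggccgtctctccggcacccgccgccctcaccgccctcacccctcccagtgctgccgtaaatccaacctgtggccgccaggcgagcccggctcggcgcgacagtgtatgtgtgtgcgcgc
Ppan: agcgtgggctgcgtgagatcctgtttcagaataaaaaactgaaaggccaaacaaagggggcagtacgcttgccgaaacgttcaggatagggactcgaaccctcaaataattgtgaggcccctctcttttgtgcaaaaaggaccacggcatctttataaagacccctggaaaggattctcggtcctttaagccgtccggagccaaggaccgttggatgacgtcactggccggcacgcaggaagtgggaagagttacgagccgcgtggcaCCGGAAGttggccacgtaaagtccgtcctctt
Tsr1: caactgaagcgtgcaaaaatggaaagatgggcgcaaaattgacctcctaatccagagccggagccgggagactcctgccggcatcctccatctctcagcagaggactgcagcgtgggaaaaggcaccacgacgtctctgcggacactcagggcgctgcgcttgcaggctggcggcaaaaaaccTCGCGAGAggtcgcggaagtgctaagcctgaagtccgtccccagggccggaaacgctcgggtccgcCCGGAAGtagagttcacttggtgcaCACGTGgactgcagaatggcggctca
Nop2: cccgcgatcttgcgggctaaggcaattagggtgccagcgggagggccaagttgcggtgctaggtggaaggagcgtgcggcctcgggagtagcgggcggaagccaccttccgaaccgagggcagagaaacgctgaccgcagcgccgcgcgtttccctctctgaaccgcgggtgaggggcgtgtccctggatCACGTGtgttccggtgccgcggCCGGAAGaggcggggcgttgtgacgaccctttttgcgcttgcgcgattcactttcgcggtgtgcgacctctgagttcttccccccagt
Pes1: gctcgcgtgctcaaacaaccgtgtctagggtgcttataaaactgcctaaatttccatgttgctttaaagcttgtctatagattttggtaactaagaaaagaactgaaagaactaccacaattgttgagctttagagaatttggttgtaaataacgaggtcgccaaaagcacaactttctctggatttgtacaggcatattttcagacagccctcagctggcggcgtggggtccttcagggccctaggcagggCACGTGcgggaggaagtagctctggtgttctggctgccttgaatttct
Polr1c: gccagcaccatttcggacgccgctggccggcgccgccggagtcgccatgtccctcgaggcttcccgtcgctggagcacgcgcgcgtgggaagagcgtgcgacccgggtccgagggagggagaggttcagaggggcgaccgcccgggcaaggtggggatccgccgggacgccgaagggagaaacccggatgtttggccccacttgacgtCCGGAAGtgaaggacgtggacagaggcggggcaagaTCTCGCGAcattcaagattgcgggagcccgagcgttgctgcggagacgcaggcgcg
The window of Gnl3, the gene with the largest rise, holds none of the 4 motifs. Of the 27 called genes with a window, 7 held CACGTG and 12 held CCGGAAG. The median log2 fold change was 0.55 over windows with CACGTG and 0.48 over those without, and 0.59 and 0.48 for CCGGAAG.

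Genes of RNA polymerase I transcription rose in part. Polr1a, the largest catalytic subunit of the polymerase (chr6:71909053-71979435, GRCm38), was at 22.1, 19.4 and 21.2 TPM in vehicle replicates 1 to 3 and 23.8, 33.2 and 29.1 TPM in stearic acid replicates 1 to 3. It was 1.37-fold higher (log2 fold change 0.43 ± 0.12 SE, limma adjusted p = 0.03). Polr1b, the second large subunit (chr2:129100970-129128060), rose 1.46-fold, from 7.86 ± 0.523 to 11.5 ± 2.36 TPM (mean ± SD, n = 3; limma adjusted p = 0.033). For both, every stearic acid library was above every vehicle library, with replicate 1 only slightly so. Ubtf, which opens the ribosomal DNA for transcription, differed by 0.18 ± 0.08 on the log2 scale and did not pass (limma adjusted p = 0.13). Polr1c, a subunit shared by polymerases I and III, was at 51.9, 50.6 and 53.7 TPM with vehicle and 51.99, 50.2 and 48.3 TPM with stearic acid. Those ranges overlap, and its difference was -0.05 ± 0.07 (limma adjusted p = 0.58). Polr1a and Polr1b both failed the threshold in each fit without a vehicle replicate or without stearic acid replicate 3 (adjusted p up to 0.10 and 0.11).

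Of the box C/D snoRNP core, which carries out ribose methylation of ribosomal RNA, the methyltransferase and 1 of its scaffold proteins rose. Fbl, the methyltransferase fibrillarin (chr7:28168893-28179269), measured 118, 119.8 and 109 TPM in the vehicle libraries and 134, 193 and 169 TPM in the stearic acid libraries. The groups did not overlap, and the rise was 1.43-fold (log2 fold change 0.50 ± 0.12 SE, limma adjusted p = 0.021). Nop58, a scaffold protein of the particle, averaged 45.4 ± 2.46 TPM with vehicle and 69.8 ± 19.01 TPM with stearic acid (mean ± SD, n = 3; 1.54-fold, limma adjusted p = 0.039). Its partner Nop56 had 69.03, 73.4 and 69.7 against 72.5, 122 and 102 TPM and missed the threshold (log2 fold change 0.45 ± 0.16 SE, limma adjusted p = 0.067). For Nop56, stearic acid replicate 1 lay within the vehicle range while replicates 2 and 3 were far above it. Idh3b overlaps Nop56 in the annotation, and whether counting used strand is not given in the sources used here, so its reads may be shared. None of the 3 genes passed when any vehicle replicate or stearic acid replicate 3 was left out (limma adjusted p 0.057 to 0.091 for Fbl and 0.096 to 0.13 for Nop58), and all 3 passed without stearic acid replicate 1. Nop58 also missed the threshold after median-of-ratios scaling (0.060) and quantile normalization (0.057).

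Of the 4 core genes of the box H/ACA snoRNP, which turns uridine into pseudouridine, 3 rose. Dkc1, the pseudouridine synthase dyskerin (chrX:75095854-75109776), was at 17.9, 19.9 and 17.5 TPM with vehicle and 20.95, 35.5 and 29.8 TPM with stearic acid, 1.56-fold higher (limma adjusted p = 0.031). Gar1, which helps the enzyme act on its substrate, had 18.4, 19.3 and 18.8 and 21.9, 35.3 and 30.03 TPM (1.54-fold, limma adjusted p = 0.025). Nhp2, an RNA-binding subunit, rose 1.39-fold from 88.5 ± 5.09 to 123 ± 25.4 TPM (mean ± SD, n = 3; limma adjusted p = 0.04). In all 3 the stearic acid libraries lay above the vehicle libraries. Nop10, the smallest subunit, did not follow. It measured 98.4, 119 and 93.7 TPM with vehicle and 89.4, 102 and 101 TPM with stearic acid, with overlapping groups (log2 fold change -0.08 ± 0.10 SE, limma adjusted p = 0.56), and its sign turned to 0.02 without vehicle replicate 2. Dkc1 overlaps Mpp1, and Nhp2 overlaps Rmnd5b. The 3 calls were each lost without any 1 vehicle replicate or without stearic acid replicate 3 (limma adjusted p 0.075 to 0.14). Nhp2 also missed the threshold on RPKM (0.051), after median-of-ratios scaling (0.064) and after quantile normalization (0.055), and Dkc1 after quantile normalization (0.054), which left Gar1 as the 1 call there.

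The abundant nucleolar proteins and regulators held the gene with the largest rise and also the most abundant member, which did not pass. Gnl3, or nucleostemin, a GTP-binding nucleolar protein of proliferating cells (chr14:31012433-31019131), was at 22.6, 26.9 and 24.6 TPM in vehicle replicates 1 to 3 and 41.8, 81.9 and 59.9 TPM in stearic acid replicates 1 to 3. Its lowest stearic acid library exceeded its highest vehicle library by far. Gnl3 rose 2.48-fold, from 24.7 ± 2.14 to 61.2 ± 20.1 TPM (log2 fold change 1.23 ± 0.20 SE, limma adjusted p = 0.0057, which ran from 3.3e-07 to 0.048 under other settings). Glt8d1 overlaps it in the annotation, and its promoter window is the one printed above without a motif. Ddx21, an RNA helicase of ribosomal RNA transcription and processing, had 53.3, 52.1 and 53.7 TPM with vehicle and 64.7, 100.2 and 84.2 TPM with stearic acid (1.57-fold, limma adjusted p = 0.016). Nolc1, a snoRNP chaperone, had 34.1, 32.3 and 33.4 against 39.02, 68.98 and 55.3 TPM (1.64-fold, limma adjusted p = 0.025). Mybbp1a, a nucleolar MYB-binding protein, rose as well, by 0.48 on the log2 scale (limma adjusted p = 0.028), and overlaps Spns2 in the annotation. Ncl, or nucleolin, differed by 0.21 ± 0.08 and did not pass (limma adjusted p = 0.082).

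Npm1, or nucleophosmin, a histone chaperone that shapes the granular nucleolus, was the most abundant of the 44 genes. It measured 538, 618 and 553 TPM with vehicle and 524, 586 and 576 TPM with stearic acid. The groups overlap (log2 fold change -0.02 ± 0.08 SE, limma adjusted p = 0.86). Its sign depended on the scaling, being 0.025 on RPKM, and it stayed between -0.06 and 0.04 with any 1 library left out. Of the 4 calls in this role only Gnl3 passed without vehicle replicate 2 or 3 or without stearic acid replicate 3, while Gnl3 and Ddx21 passed without vehicle replicate 1.

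**Figure D2:**
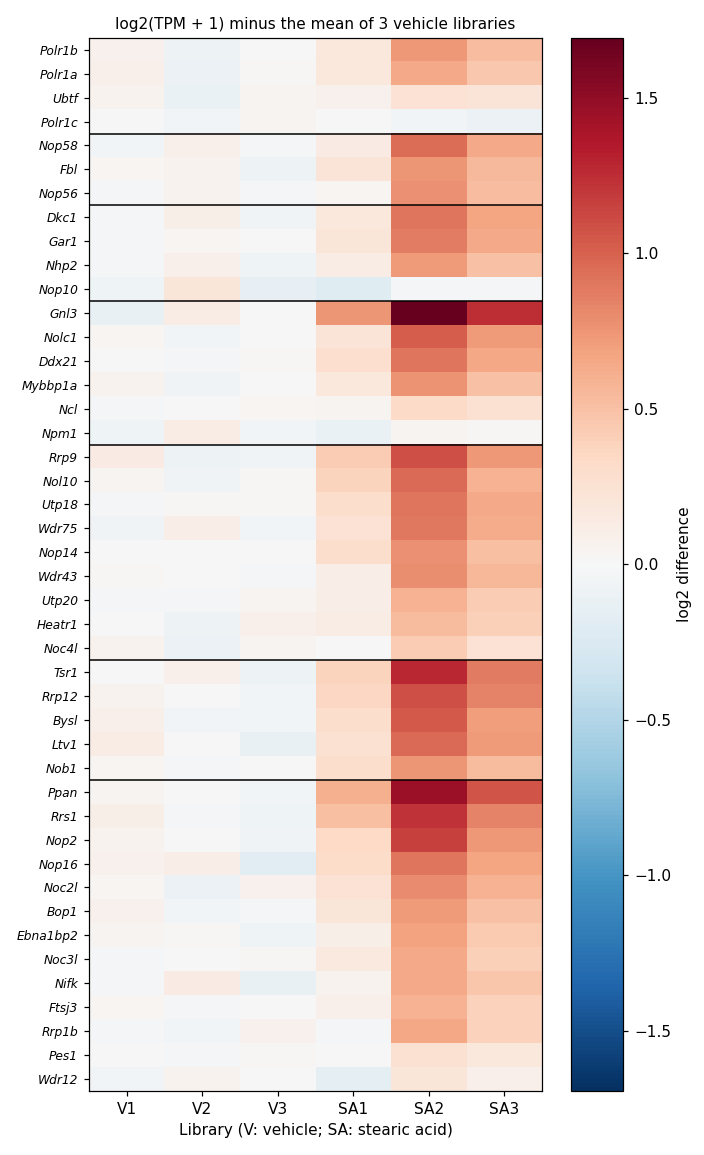
Log2(TPM + 1) of each of the 44 genes in each library, given as the difference from that gene's vehicle mean, with libraries in columns and genes in rows by role. Stearic acid replicate 2 has the highest values and replicate 1 the lowest of the treated libraries in 43 of 44 genes, and the vehicle columns lie near 0.

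The small subunit processome is a large particle that forms on the growing precursor and cuts out the 18S ribosomal RNA. Of its 9 genes 8 rose, with a median log2 fold change of 0.53 over the 9. After median-of-ratios scaling 6 passed, without Utp20 and Wdr43, and after quantile normalization 5, without Heatr1 as well. Rrp9, a protein of the U3 snoRNP that guides the early cuts, had 12.3, 10.4 and 10.6 TPM with vehicle and 15.4, 24.9 and 19.2 TPM with stearic acid, and was 1.78-fold higher (log2 fold change 0.76 ± 0.15 SE, limma adjusted p = 0.012). Nop14, a processome scaffold protein, was nearly identical in the vehicle libraries at 30.95, 30.8 and 30.9 TPM and stood at 38.3, 53.3 and 44.5 TPM after stearic acid (1.47-fold, limma adjusted p = 0.013). Nol10 measured 11.04, 10.1 and 10.8 against 14.1, 21.7 and 16.6 TPM (1.64-fold, limma adjusted p = 0.014). These 3 genes had no overlap between groups. Utp18, Wdr75, Wdr43, Utp20 and Heatr1, further structural proteins of the particle, rose by 0.61, 0.59, 0.49, 0.37 and 0.35 on the log2 scale. Noc4l, a partner of Nop14, had 35.7, 32.1 and 35.5 TPM with vehicle and 34.1, 46.8 and 40.7 TPM with stearic acid. Its stearic acid replicate 1 lay within the vehicle range, and it did not pass (log2 fold change 0.22 ± 0.11 SE, limma adjusted p = 0.17). Of the 9 genes, 3, 0 and 0 passed when vehicle replicate 1, 2 or 3 was left out. When stearic acid replicate 1, 2 or 3 was left out, 9, 5 and 3 passed, the last being Rrp9, Nop14 and Nol10.

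All 5 genes of late small subunit maturation rose, with the highest median of the 7 roles (0.68). Tsr1, a GTPase-like protein that blocks premature joining of the subunits, had 16.9, 17.8 and 15.7 TPM with vehicle and 22.01, 42.01 and 31.5 TPM with stearic acid (1.90-fold, log2 fold change 0.84 ± 0.19 SE, limma adjusted p = 0.017). Rrp12, an export factor, had 10.9, 10.3 and 10.04 and 13.6, 23.3 and 19.5 TPM (1.80-fold, limma adjusted p = 0.014). Both separated the groups, and in both stearic acid replicate 2 was the highest library. Nob1, the endonuclease that makes the final cut of 18S RNA, measured 23.4, 22.2 and 22.7 TPM against 28.1, 38.8 and 33.4 TPM (1.47-fold, limma adjusted p = 0.014). Ltv1, an adaptor for assembly of the subunit's head, measured 23.4, 21.3 and 19.4 against 25.6, 42.3 and 35.9 TPM (1.62-fold, limma adjusted p = 0.023). Bysl, or bystin, rose by 0.68 ± 0.16 on the log2 scale (limma adjusted p = 0.02). Bysl overlaps Ccnd3, and Tsr1 overlaps Srr. All 5 passed when vehicle replicate 1 or stearic acid replicate 1 or 2 was left out, none when vehicle replicate 2 or 3 was, and Nob1 and Rrp12 when stearic acid replicate 3 was.

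Of 13 genes of large subunit assembly 7 rose, with a median log2 fold change of 0.41 over the 13 and a range from 0.04 to 1.04. Ppan, a factor of early 60S particles (chr9:20888175-20892179), was at 17.00, 16.3 and 15.8 TPM with vehicle and 25.4, 46.5 and 35.2 TPM with stearic acid. It was 2.18-fold higher (log2 fold change 1.04 ± 0.18 SE, limma adjusted p = 0.0067, which ran from 7.2e-07 to 0.055 under other settings, the highest without vehicle replicate 2), and the groups lay far apart. Rrs1, which brings the 5S ribosomal RNA particle into the subunit, had 18.6, 17.1 and 16.4 and 25.2, 41.7 and 31.8 TPM (1.89-fold, limma adjusted p = 0.0085). Nop2, a methyltransferase of 28S ribosomal RNA, had 30.9, 29.6 and 28.2 and 37.6, 67.3 and 49.7 TPM (1.74-fold, limma adjusted p = 0.019). All 3 were above the vehicle range in each treated library. Nop16, Noc2l, Bop1 and Noc3l also rose, by 0.62, 0.54, 0.48 and 0.41 on the log2 scale, and Noc3l missed the threshold after quantile normalization.

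Bop1, Pes1 and Wdr12 form the PeBoW complex of 60S assembly, and of the 3 only Bop1 passed. Pes1 had 84.6, 83.8 and 85.5 TPM with vehicle and 85.2, 101 and 95.9 TPM with stearic acid (log2 fold change 0.15 ± 0.08 SE, limma adjusted p = 0.18), and Wdr12 had 23.1, 24.95 and 23.8 and 21.3, 27.6 and 25.5 TPM (log2 fold change 0.04 ± 0.10 SE, limma adjusted p = 0.78; -0.04 without stearic acid replicate 2). Both had stearic acid replicate 1 within or below the vehicle range. The difference between Bop1 and its partners was not tested, and Bop1 overlaps Mroh1 and Scx while Wdr12 overlaps Carf. Ebna1bp2, Nifk, Ftsj3 and Rrp1b, other 60S factors, had log2 fold changes of 0.41, 0.39, 0.36 and 0.34 without passing (limma adjusted p = 0.053, 0.068, 0.051 and 0.13). Ftsj3 overlaps Ddx42, Ebna1bp2 overlaps Cfap57, and Noc2l overlaps Klhl17 and Samd11. With vehicle replicate 1, 2 or 3 left out, the calls among the 13 numbered 4, 0 and 1 (Ppan). With stearic acid replicate 1, 2 or 3 left out they numbered 12, 6 and 2, the last being Ppan and Rrs1.

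**Figure D3:**
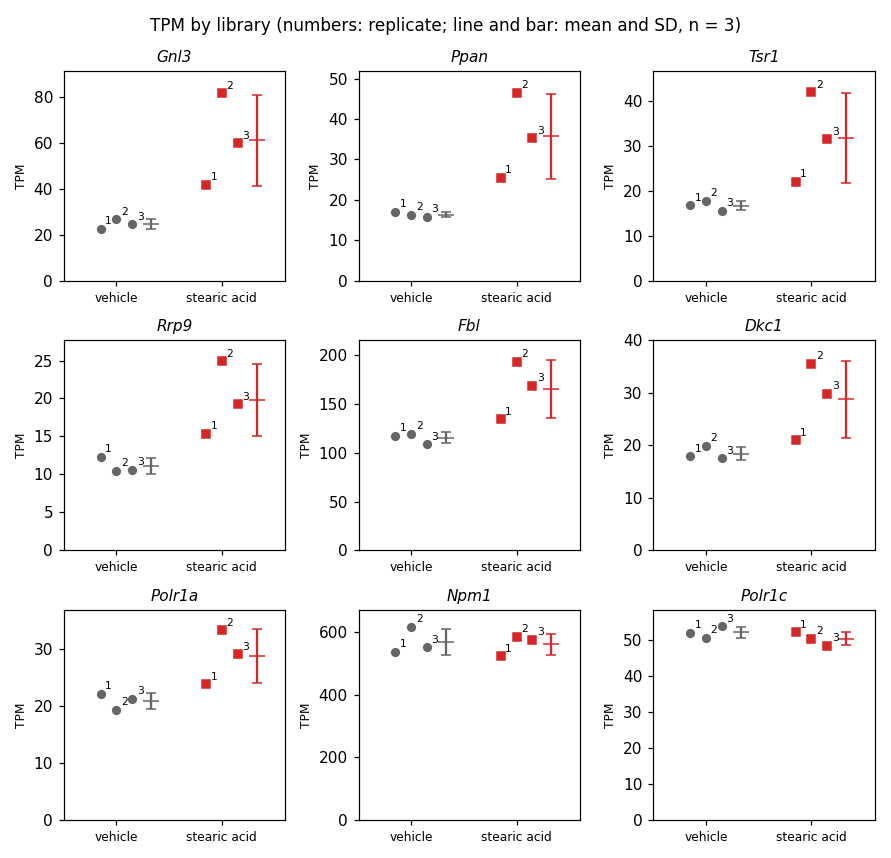
TPM of Gnl3, Ppan, Tsr1, Rrp9, Fbl, Dkc1, Polr1a, Npm1 and Polr1c in each library (points numbered by replicate, with mean and SD of 3 libraries beside them; each panel has its own axis from 0). All treated libraries lie above all vehicle libraries in each panel except those of Npm1 and Polr1c, where the groups overlap.

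The treated libraries were not alike. Relative to the vehicle mean, the median over the 44 genes was 0.18 in stearic acid replicate 1, 0.77 in replicate 2 and 0.53 in replicate 3, on the log2 scale. Replicate 2 was highest, replicate 3 in the middle and replicate 1 lowest for 43 of the 44 genes (97.7%). The same order held for 1136 of all 1482 genes called higher (76.7%), whose medians were 0.30, 0.56 and 0.43. Genes of 1 library share its depth and composition, so these are not independent observations. Replicate 1 was above all vehicle libraries for 35 of the 44 genes, as it was for 32.5% of all genes tested.

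Level and fold change were related among the genes, as a description only. The rank correlation of vehicle TPM with log2 fold change was -0.45 over the 44 genes, which share the 6 libraries. Vehicle levels enter both quantities, and the same correlation over all genes tested was not computed. Of the 22 genes with lower vehicle levels (up to 24.7 TPM) 19 rose, with a median of 0.59, and of the other 22 (from 25.1 TPM) 12 rose, with a median of 0.46.

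Small nucleolar RNAs are often made from introns of genes for the translation machinery. By the annotation, 8 of the 44 genes (18.2%) hold snoRNA genes within their span, 21 in all, against 2.43% of the 10843 protein-coding genes tested and 2.56% of those called higher. They are Nop58, Ncl, Nop56, Ppan, Tsr1, Gnl3, Wdr43 and Dkc1. Of these 8, 6 rose with a median log2 fold change of 0.58 over the 8, and of the other 36 genes 25 rose with a median of 0.48. The snoRNAs themselves are not polyadenylated, and their levels were not analysed here.

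Other genes of the same pathway also leaned upwards, with smaller values. In 6 lists of further assembly genes, 42 of 123 rose (34.1%, beside 12.8% of all genes tested) and 1 fell, with a median log2 fold change of 0.22. By list, 11 of 36 other small subunit processome genes rose and none fell, among them Rrp7a (0.37, limma adjusted p = 0.019) and Rcl1 (0.50, limma adjusted p = 0.021), which act in early 18S maturation. Of 8 other late small subunit genes 4 rose, including Pno1 (0.62, limma adjusted p = 0.0091), a partner of Nob1, and the kinase gene Riok3 (0.33, limma adjusted p = 0.021). Of 44 other large subunit genes 19 rose. Nle1, which takes part in the remodelling of 60S particles, rose by 0.72 (limma adjusted p = 0.0047), and Ddx54, an RNA helicase, by 0.58 (limma adjusted p = 0.0051), and both passed in all 6 fits with a library left out. Among the snoRNP assembly factors 2 of 10 rose (20%), Nufip1 (0.31) and Shq1 (0.34). This list also holds Nhp2l1 (Snu13), a gene of the box C/D core, which was not called. Of the RNA exosome, which trims ribosomal RNA precursors, 4 of 14 rose, led by Exosc4 (0.47, limma adjusted p = 0.0071) and Exosc3 (0.34, limma adjusted p = 0.02). Of 11 other RNA polymerase I genes 2 rose (18.2%), Polr1e (0.34) and Cd3eap, and Znrd1 fell by 0.28 (limma adjusted p = 0.034). The shares called higher among these polymerase genes and the snoRNP assembly factors were near that over all genes. The total of 42 became 8, 4 and 3 on leaving out vehicle replicate 1, 2 or 3, and 74, 25 and 6 on leaving out stearic acid replicate 1, 2 or 3. Of all 11551 genes, 684, 384 and 486, and 2223, 1059 and 585, were called higher in these fits. Without any 1 vehicle replicate or stearic acid replicate 3, the share in the lists was thus near or below that over all genes. Among the 6 fits with a library left out, Nufip1, Shq1, Polr1e and Znrd1 passed only without stearic acid replicate 1. Riok3 and Exosc3 passed only without stearic acid replicate 1 or 2. Rrp7a and Rcl1 lost their calls without vehicle replicate 2 or 3 or stearic acid replicate 3. Pno1 lost its call without vehicle replicate 3 (limma adjusted p = 0.055).

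**Figure D4:**
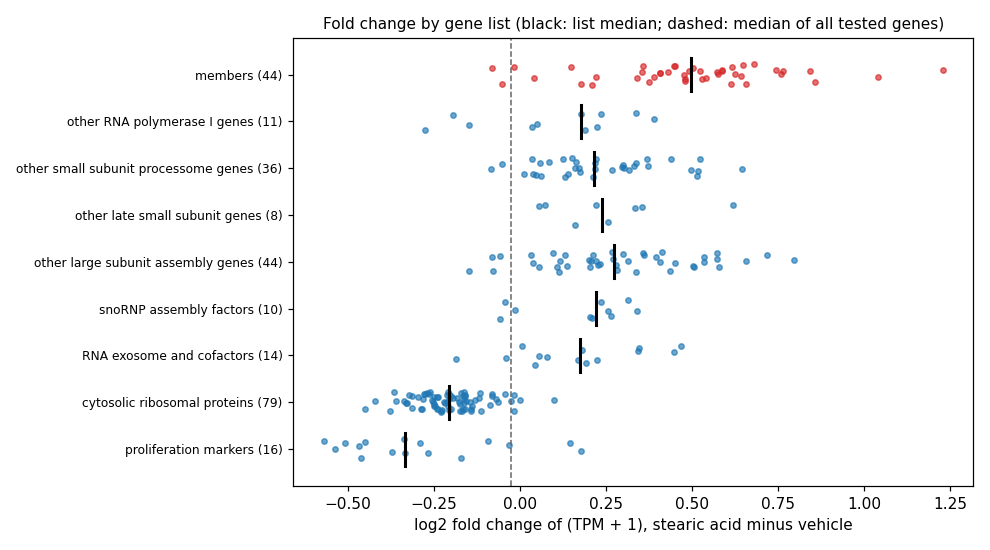
Log2 fold changes (stearic acid minus vehicle) by gene list, 1 point a gene, with the 44 genes in red and other lists in blue. Black bars are list medians, and the dashed line is the median of all tested genes. The 44 genes have a median of 0.50, the other assembly lists lie at 0.17 to 0.27, and ribosomal proteins and proliferation markers have medians of -0.21 and -0.34.

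The ribosomal proteins, the parts that these factors assemble, did not rise with them. None of the 79 cytosolic ribosomal protein genes was called higher and 24 fell (30.4%, beside 11.9% of all genes tested). These were limma calls, and at an unadjusted p under 0.05, 0 were higher and 54 lower, beside 2232 and 2439 of all 11551 genes. Their median log2 fold change was -0.21, and 64 of the 79 had all stearic acid libraries below all vehicle libraries, as 21.7% of all genes did. Rps20 fell by 0.42 and Rps4x by 0.37 (limma adjusted p = 0.014 and 0.019), and both missed the threshold without vehicle replicate 2 (0.058 and 0.057) or stearic acid replicate 3 (0.054 and 0.066). Rps4x missed it also without vehicle replicate 3 (0.061), on RPKM (0.052) and after median-of-ratios scaling (0.053). The median was negative under every scaling, but 1 gene was called lower on RPKM and 2 after median-of-ratios scaling. Of all 11551 genes, 1373 and 1573 were called lower under these scalings. The share among the ribosomal proteins was then below that over all genes. Without a library, 2, 0 and 6 (vehicle replicates 1 to 3) and 39, 12 and 0 (stearic acid replicates 1 to 3) of the 79 were called lower. Over all genes these numbered 389, 166 and 142, and 2787, 938 and 420. Many ribosomal protein genes have near-identical pseudogenes, to which reads can also be assigned.

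Most markers of proliferation were lower with stearic acid. Of 16 genes 11 fell (68.8%, beside 11.9% of all genes tested) and none rose, with a median log2 fold change of -0.34. The 5 that did not pass were Mcm2, Mcm3, Mcm5, Mcm6 and Pcna, all genes of DNA replication. Log2 fold changes in the list ran from -0.57 to 0.18. These were limma calls, and at an unadjusted p under 0.05, 12 were lower, beside 2439 of all 11551 genes. Cdk1, the kinase of mitotic entry, fell by 0.46 (limma adjusted p = 0.0051) and did so in all 6 fits with a library left out. Birc5, or survivin, fell by 0.54 (limma adjusted p = 0.0071), a call lost without vehicle replicate 2 (0.052). The count of 11 became 6, 1 and 3 on leaving out vehicle replicate 1, 2 or 3, and 11, 9 and 6 on leaving out stearic acid replicate 1, 2 or 3. Of all 11551 genes, 389, 166 and 142, and 2787, 938 and 420, were called lower in these fits. With stearic acid replicate 1 left out, 2 genes were also called higher. Most assembly genes were higher with stearic acid while most ribosomal protein and proliferation genes were lower, and no test linked them. Relative to the vehicle mean, the ribosomal protein medians were -0.18, -0.24 and -0.19 in stearic acid replicates 1 to 3, on the log2 scale. Those of the 44 genes were 0.18, 0.77 and 0.53.

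Of the MYC network, Myc itself rose. It measured 15.3, 14.9 and 12.1 TPM in vehicle replicates 1 to 3 and 18.8, 52.7 and 37.2 TPM in stearic acid replicates 1 to 3. The groups did not overlap, and stearic acid replicate 1 was close to the vehicle range. The treated libraries stood in the same order as for the assembly genes, an order found in 76.7% of all genes called higher. Myc was 2.57-fold higher, from 14.1 ± 1.71 to 36.3 ± 16.9 TPM (log2 fold change 1.19 ± 0.30 SE, limma adjusted p = 0.023). Mxd3, a MAX partner that represses E-box genes, had 26.03, 24.5 and 28.2 TPM with vehicle and 21.9, 13.98 and 18.3 TPM with stearic acid, and fell by 0.53 (limma adjusted p = 0.027). Both calls were lost when any vehicle replicate or stearic acid replicate 3 was left out, with adjusted p for Myc up to 0.10. Mxd1 and Mxd4, repressors of the same family, had log2 fold changes of -0.61 and -0.77 and did not pass (limma adjusted p = 0.052 and 0.074). The other tested members were Mnt at 0.16, Mxi1 at -0.14, Max at 0.09, Mlx at 0.10 and Mga at -0.02, and none passed. Mycn and Mycl were below the filter. Whether Myc had a part in the rise of the assembly genes was not tested.

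**Figure D5:**
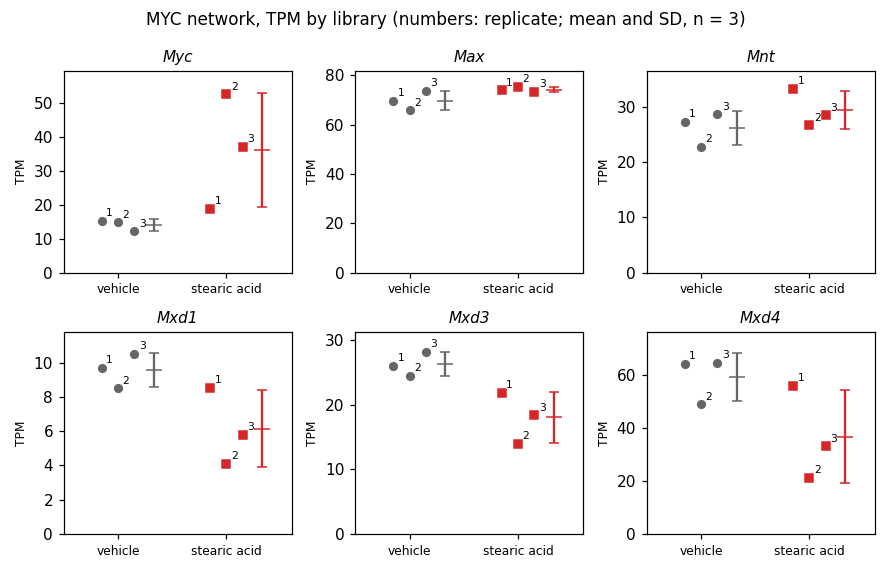
TPM of Myc, Max, Mnt, Mxd1, Mxd3 and Mxd4 in each library (points numbered by replicate, with mean and SD of 3 libraries beside them; each panel has its own axis from 0). Myc in the treated libraries is at 18.8, 52.7 and 37.2 TPM, all above the vehicle libraries, while Mxd3 is lower in each.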

How the data were processed

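Per the file headers, the authors deposited TPM and RPKM for each gene, the latter being reads scaled by gene length and by library total. The submitters' processing notes name DRAGEN, with no version, and the builds GRCm38 and mm10. For the annotation, the counting rule and its use of strand, nothing is given in the sources used here, so overlapping genes may share reads. Tests were run with limma 3.58.1 in R 4.3.3 on log2(TPM + 1), with a trended prior, over the 11551 genes whose mean over the 6 libraries reached 1 TPM. P-values were adjusted over all of these by the Benjamini-Hochberg method (threshold 0.05). The pseudocount understates fold changes of low genes, and TPM is relative to all other transcripts. Fold values without "log2" are ratios of mean TPM. Of the gene numbers, 97.3% matched RefSeq (GRCm38.p6), which gave coordinates, overlaps and promoter windows.

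The 44 genes, the lists and the motifs were chosen with earlier results of these data known. In each role the 3 genes with the smallest p, the one with the largest p and any call against the common direction are named. From each list the 2 calls with the smallest p, the first call of the other direction and all tested MYC network genes are named. Others are named where a small count or a contrast needed them, after their values were seen. Alternatives were other pseudocounts (0.5, 0.1), no filter, a filter at 5 TPM, RPKM, median-of-ratios scaling, quantile normalization, no trend, a replicate block and leaving out each library. The code was tested on simulated data.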

Additional observations from a re-analysis of the deposited data

How the results depend on the processing

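The median log2 fold change of the 44 genes stayed between 0.37 and 0.64 under all 15 alternatives, and none of the 44 was called lower in any of them. The counts moved more. With no filter on low values, 1027 of 21632 genes were called, 2 of the 44, 5 of the other assembly genes, 3 of the proliferation markers and 0 of the ribosomal proteins. Ribosomal proteins called lower numbered 1 on RPKM and 2 after median-of-ratios scaling, beside 1373 and 1573 of all 11551 genes. Leaving out 1 library gave 550 to 5010 calls over all genes, 1 to 40 of the 44, 3 to 74 other assembly genes, 0 to 39 ribosomal proteins and 1 to 11 proliferation markers. Genes near 0 turned sign without passing. Nop10 ran from -0.15 to 0.020 with 1 library left out, the highest without vehicle replicate 2. Wdr12 ran from -0.038 to 0.14, the lowest without stearic acid replicate 2. Npm1 was at 0.025 on RPKM, 0.0039 after median-of-ratios scaling, 0.0066 after quantile normalization, and from -0.059 to 0.041 with 1 library left out, above 0 for vehicle replicate 2 (0.041) and stearic acid replicate 1 (0.030). Mga was at 0.020 on RPKM, 0.0031 after median-of-ratios scaling, and from -0.097 to 0.042 with 1 library left out, above 0 for vehicle replicate 3 (0.041) and stearic acid replicate 2 (0.042). The cause of these shifts was not tested. With 3 libraries a group and treated libraries that differ among themselves, a gene that missed the threshold is not shown to be unchanged.

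The labels do not say whether same-numbered samples were paired, and with 3 libraries a group the following correlations cannot decide it. Deviations of same-numbered libraries correlated at 0.07, 0.29 and 0.04, and not every library correlated best with its own number. With a replicate block 35 of the 44 genes and 3638 of all genes were called.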
